A study of Sus scrofa with 25 samples.

Results

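Surfactant and airway transcripts were followed through 25 muscle libraries from pigs on feeds with different amounts of vitamin D3. The 6 genes were SFTPC (ENSSSCG00000009619), SFTPD (ENSSSCG00000010334), SLC34A2 (ENSSSCG00000008758), CLDN18 (ENSSSCG00000011657), SCGB1A1 (ENSSSCG00000013060) and SCGB3A1 (ENSSSCG00000014008). They were found by symbol in the Ensembl table of pig gene names, and each symbol matched 1 identifier among the 25879 pig genes counted in every library. They had been picked because lung transcripts had already been seen in these libraries, so their presence is a description and not a finding. No source used here gives the genome build behind the counts, so no coordinates are printed.

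The animals were crossbred pigs from Landrace boars and Polish Large White sows, housed singly on straw. From day 85 of life they ate, for 90 days, feeds of equal protein and energy that held vitamin D3 at 0 IU/kg (control, 8 pigs), 5000 IU/kg (D5000, 8 pigs) or 10000 IU/kg (D10000, 9 pigs), and litters were split over the diets. Each pig gave 1 library, named here by diet and animal number. RNA from muscle tissue was sequenced from the 3' end of mRNA (QuantSeq FWD), and no label states which muscle was taken or the sex of the pigs. Depth was 3310507 to 15177976 gene counts per library. Checked against the labelled tissue, the skeletal actin gene ACTA1 stood at 10029 to 213895 CPM (the count of a gene scaled to the gene counts of its library), and the lowest value was that of D10000 replicate 27. In that library the fat hormone gene ADIPOQ stood at 1234 CPM, against a median of 11.3 CPM over all libraries. Low shares of reads assigned to genes, under 45%, were found in D5000 replicates 11 and 18 and D10000 replicates 2 and 7.

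In the lung, alveolar type II cells make surfactant, a film of lipids and proteins that keeps the air sacs open, and flat type I cells form the surface for gas exchange. SFTPC is a small hydrophobic surfactant protein made almost only by type II cells. SFTPD is a collectin that binds microbes, and SLC34A2 is a sodium-phosphate cotransporter of type II cells that other epithelia such as the gut also use. CLDN18 is a tight junction protein with a lung and a stomach form, which counts per gene do not separate. SCGB1A1 is the secreted protein that marks club cells of the airways, and SCGB3A1 is a secretoglobin of airway secretory cells. None of them is a marker of skeletal muscle fibres.

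Together the 6 genes held 9543 counts over the 25 libraries, 0.00441% of all gene counts. They were spread unevenly: 10 libraries had at least 1 count of every gene, 13 had some of them, and D5000 replicate 15 and D10000 replicate 21 had none. A count of 0 still allows up to 3 counts, which is 0.260 CPM in D5000 replicate 15 and 0.457 CPM in D10000 replicate 21. Both airway genes were counted in 10 libraries, and all 10 also held the 4 alveolar genes. The reverse was less complete, with 16 libraries holding all 4 alveolar genes. In bulk RNA, fewer cells of a type and less RNA per cell cannot be told apart. The source of these counts in muscle libraries was not tested.

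**Figure D1:**
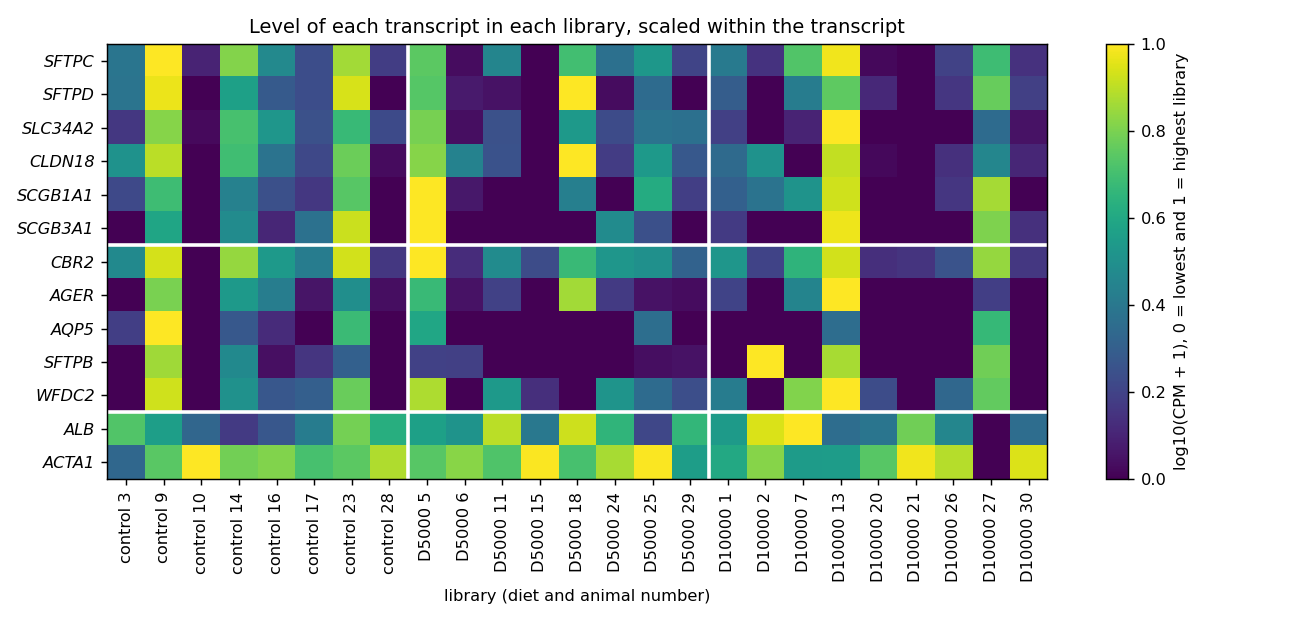
Levels of the 6 surfactant and airway transcripts (top), 5 lung-expressed partners (middle) and the liver and muscle transcripts ALB and ACTA1 (bottom) in each of 25 libraries, as log10(CPM + 1) scaled within each row so that 0 is the lowest and 1 the highest library. Columns are grouped by diet, and D10000 replicate 13, control replicates 9 and 23 and D5000 replicate 5 are bright in most of the upper rows while ALB and ACTA1 follow another order.

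SFTPC was counted in 23 of 25 libraries. In control it ranged from 0.557 to 80.1 CPM with a median of 5.72 CPM. In D5000 it ranged from 0 to 26.0 CPM (median 5.21) and in D10000 from 0 to 73.1 CPM (median 1.38). The diets overlapped, and each held libraries near 0 beside libraries above 20 CPM. No D5000 library passed 26.0 CPM, while control replicates 14 and 23 stood at 34.9 and 43.3 CPM. The top values belonged to control replicate 9 with 633 counts and to D10000 replicate 13 with 829 counts. The 3 libraries with most counts held 56.5% of all SFTPC counts.

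SFTPD was counted in 19 libraries. It ranged from 0 to 44.3 CPM in control (median 2.78), from 0 to 50.1 CPM in D5000 (median 0.269) and from 0 to 19.4 CPM in D10000 (median 1.10). The highest library was D5000 replicate 18 with 217 counts, and within D5000 the next was replicate 5 at 17.2 CPM. The other 6 libraries of D5000 stood at 2.95 CPM or lower. SLC34A2 was counted in 20 libraries, with 0.111 to 30.5 CPM in control (median 4.98), 0 to 27.2 CPM in D5000 (median 2.78) and 0 to 66.4 CPM in D10000 (median 0.236). D10000 held the highest value of this transporter, 753 counts in replicate 13, and also 4 of the 5 libraries at 0. The second highest D10000 library, replicate 27, stood at 3.34 CPM.

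CLDN18 was counted in 21 libraries, at 0 to 40.2 CPM in control (median 5.57), 0 to 62.6 CPM in D5000 (median 3.74) and 0 to 42.8 CPM in D10000 (median 0.791). As for SFTPD, the highest library was D5000 replicate 18, with 271 counts. The airway genes had fewer counts. SCGB1A1 was counted in 17 libraries and never passed 96 counts, with 0 to 5.00 CPM in control (median 0.752), 0 to 10.3 CPM in D5000 (median 0.366) and 0 to 8.47 CPM in D10000 (median 1.11). SCGB3A1 was counted in 12 libraries, with 0 to 12.2 CPM in control (median 1.10), 0 to 15.5 CPM in D5000 (median 0) and 0 to 14.4 CPM in D10000 (median 0). Both airway genes were highest in D5000 replicate 5 and second highest in D10000 replicate 13.

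**Figure D2:**
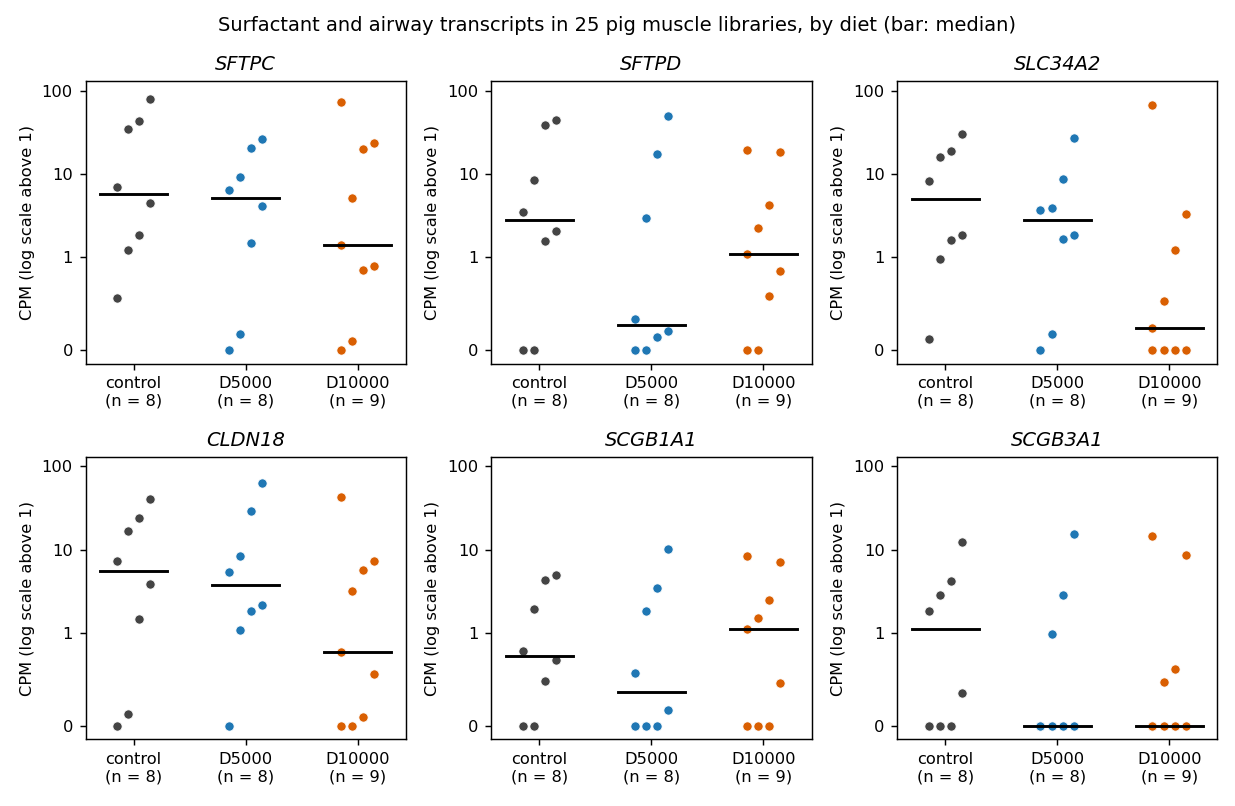
CPM of each of the 6 transcripts by diet, 1 point per library and a bar at the median, on an axis that is linear below 1 CPM and logarithmic above. In every panel the 3 diets overlap, and each diet holds libraries at or near 0 beside a few high ones, such as SFTPC at 80.1 CPM in control and 73.1 CPM in D10000.

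The question asked of the diets was whether vitamin D3 in the feed goes with a different level of these transcripts, and no gene among the 6 passed the test at either dose. All 6 genes passed the filter on low counts, and counts were fitted with edgeR's quasi-likelihood test over 10992 genes with Benjamini-Hochberg adjustment over all of them. At D5000 against control, 0 of 6 were called, beside 0 of all tested genes (0%), and at an unadjusted p under 0.05 it was 0 of 6 beside 3.38% of all tested genes. SFTPC averaged 8.46 ± 9.73 CPM in D5000 and 21.7 ± 28.8 CPM in control (SD, n = 8 each). Its log2 fold change was -1.50 ± 1.19 (SE, edgeR adjusted p = 0.999). For each of the other members the SE was larger than the difference.

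At D5000 the other alveolar genes stood at log2 fold changes of -0.78 ± 1.30 for SFTPD, -0.89 ± 1.34 for SLC34A2 and -0.04 ± 1.22 for CLDN18. The airway genes stood at 0.41 ± 1.17 for SCGB1A1 and -0.01 ± 1.41 for SCGB3A1. The median of the 6 was -0.41, beside 0.01 over all tested genes, and single libraries moved it. The value of SLC34A2 was -2.00 without D5000 replicate 5, and that of SFTPD was -1.87 without D5000 replicate 18 and 0.00 without control replicate 9.

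At D10000 against control, 0 of 6 were called, beside 0% of all tested genes, and 0 of 6 beside 2.39% had an unadjusted p under 0.05. SLC34A2 averaged 7.97 ± 21.9 CPM in D10000 (SD, n = 9) and 9.74 ± 11.0 CPM in control (SD, n = 8). Its log2 fold change of -0.44 ± 1.29 (edgeR adjusted p = 1.00) rested on D10000 replicate 13: without that library it was -4.04 ± 1.12, with an unadjusted p of 0.00122 and an adjusted p of 0.984 in edgeR. The other D10000 libraries lay between 0 and 3.34 CPM. CLDN18 gave -0.92 ± 1.19 over all libraries, and -2.69 ± 1.15 once that replicate was left out. SFTPC gave -0.85 ± 1.13 over all libraries, and -2.09 ± 1.12 once it was left out. Without control replicate 9 the same contrast gave 0.06 for SLC34A2, -0.28 for CLDN18 and -0.14 for SFTPC. SFTPD stood at -1.34 ± 1.27, SCGB1A1 at 0.34 ± 1.14 and SCGB3A1 at -0.02 ± 1.37. The median of the 6 was -0.64, beside 0.07 over all tested genes.

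At D10000 against D5000, 0 of 6 were called, beside 0% of all tested genes, and 0 of 6 beside 2.94% had an unadjusted p under 0.05. The log2 fold changes were 0.65 ± 1.15 for SFTPC, -0.56 ± 1.26 for SFTPD, 0.45 ± 1.30 for SLC34A2 and -0.88 ± 1.19 for CLDN18. They were -0.07 ± 1.13 for SCGB1A1 and 0.00 ± 1.39 for SCGB3A1. The D10000 libraries enter this contrast and the one before it, and the control libraries enter both contrasts with control, so the values side by side are not independent. Without D10000 replicate 13, SLC34A2 gave -3.17 ± 1.09 and CLDN18 stood at -2.67 ± 1.15 (edgeR adjusted p = 1.00 for each).

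DESeq2, run on the same genes, also called 0 genes in each contrast, with 510, 339 and 393 genes at an unadjusted p under 0.05 for D5000 against control, D10000 against control and D10000 against D5000. None of the 6 genes was among those in either tool. Exact permutation tests over libraries were run on log2 CPM (prior count 2). Of 18 tests, 0 had a two-sided p under 0.05, and the smallest exact p was 0.0838 for SLC34A2 in D10000 (mean log2 CPM of -0.17 ± 2.72, SD, n = 9) against control (2.12 ± 2.28, n = 8). Of the D10000 libraries, 1 of 9 lay above the control median of SLC34A2. For this gene and contrast the exact permutation p depended on the scale, at 0.0577 with a prior count of 0.5 and 0.904 on CPM. The groups overlapped in all 18 comparisons. These tests were run on the members only, so neither count has a share over all genes to set beside it. With an SE above 1 on the log2 scale for every gene and contrast, differences of several fold in either direction would be within the error of these libraries.

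**Figure D3:**
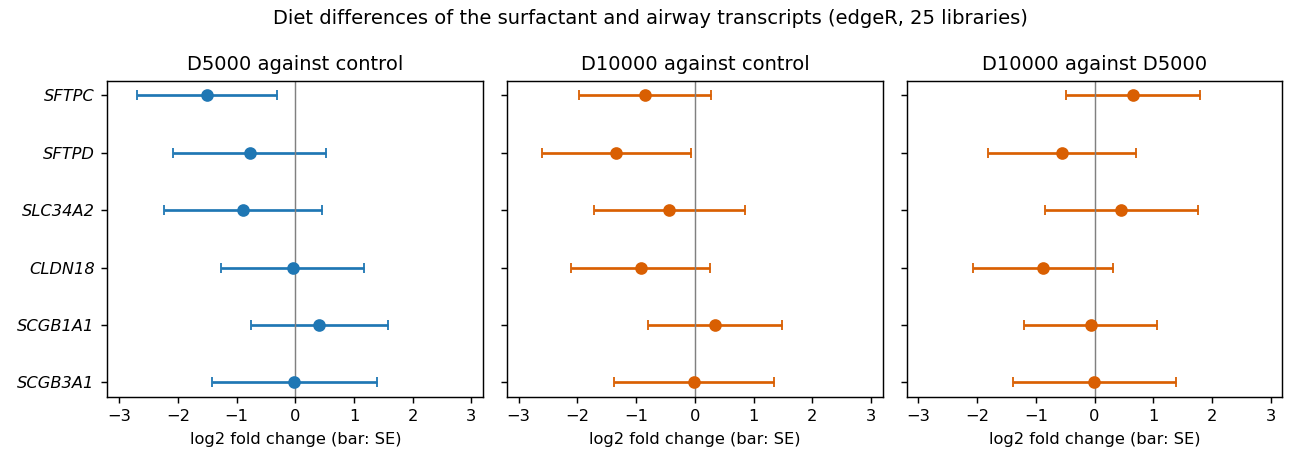
Log2 fold changes of the 6 transcripts in the 3 contrasts, with SE, from the edgeR fit over 25 libraries. The values run from -1.50 for SFTPC at D5000 against control to 0.65 for SFTPC at D10000 against D5000, and the SE is above 1 for each.

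The spread among libraries was shared by the genes. Over all 25 libraries the Pearson r of log2 CPM between members ran from 0.60 to 0.87 over the 15 pairs, with a median of 0.76, and Spearman rho of CPM ran from 0.57 to 0.88. These are descriptions without a p, because the genes were chosen as a group. The points share the depth and make-up of their library, and many are at 0. Within single diets the median r of the 15 pairs was 0.88 in control, 0.75 in D5000 and 0.77 in D10000.

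Among the alveolar genes, SFTPC moved most closely with SLC34A2 (r = 0.87, rho = 0.88) and SFTPD (r = 0.86, rho = 0.85). Its relation to CLDN18 was looser (r = 0.74, rho = 0.74), and r was 0.68 without the 2 libraries farthest from the SFTPC median. Over all 25 libraries, alveolar and airway genes moved together about as much as the alveolar genes did among themselves. The median r was 0.74 over 8 mixed pairs and 0.78 over 6 alveolar pairs. Within D5000 the mixed pairs were looser, with a median of 0.63 against 0.77, and CLDN18 with SCGB3A1 had r = 0.30. The medians of mixed and alveolar pairs were 0.86 and 0.94 in control, and 0.77 and 0.80 in D10000. SCGB1A1 was close to SFTPC (r = 0.83, rho = 0.84) and to SFTPD (r = 0.83, rho = 0.81). The airway genes SCGB1A1 and SCGB3A1 had r = 0.70 and rho = 0.66 with each other, and r = 0.59 without the 2 libraries farthest from the SCGB1A1 median. The loosest pair was CLDN18 with SCGB3A1 (r = 0.60, rho = 0.57).

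**Figure D4:**
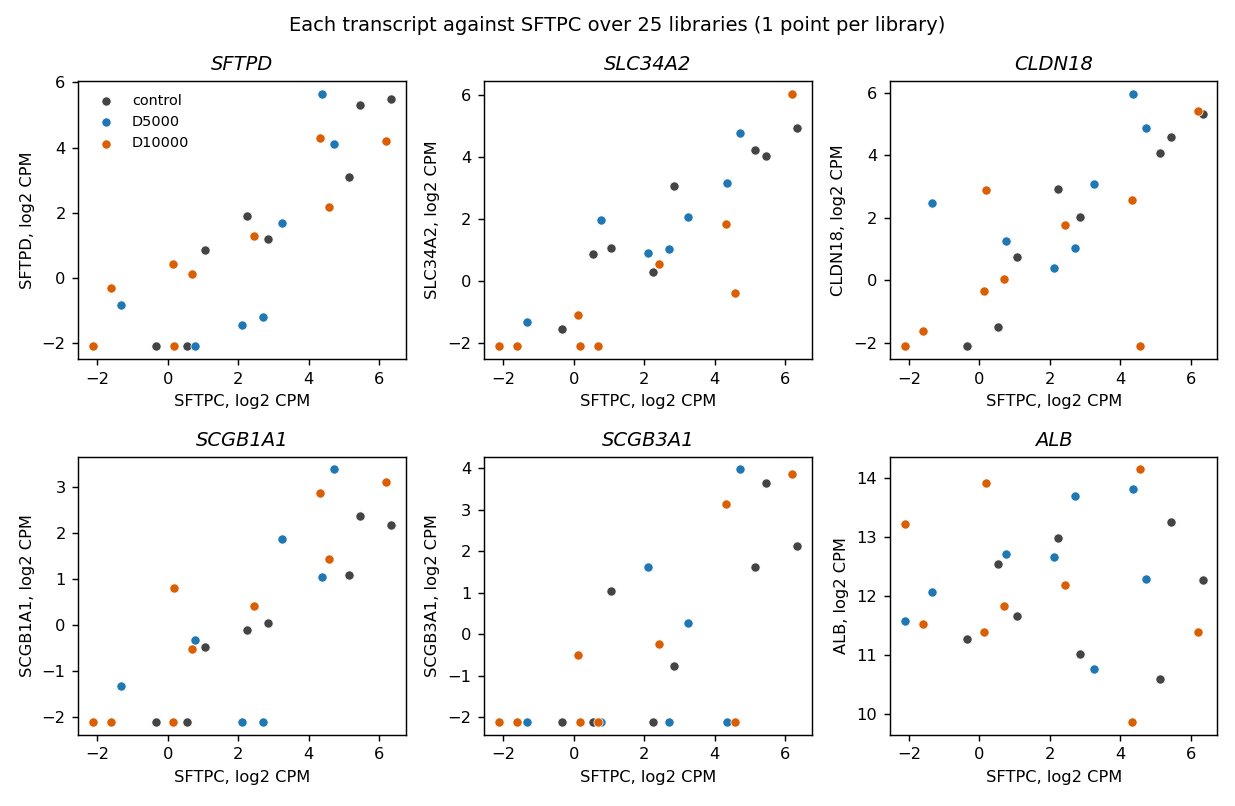
Log2 CPM of SFTPD, SLC34A2, CLDN18, SCGB1A1, SCGB3A1 and ALB against SFTPC, 1 point per library, coloured by diet; the 6 members have a prior count of 2, so libraries at 0 lie near -2. The first 5 panels rise from lower left to upper right (r from 0.70 to 0.87 over all 25 libraries). Within single diets r with SFTPC was as low as 0.54 for SCGB3A1 in D5000 and 0.60 for CLDN18 in D10000. D10000 replicate 7 is the point at the bottom right of the CLDN18 panel, and the ALB panel shows no such order.

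The same few libraries led for every gene. When the 5 highest libraries of each gene were listed, only 7 libraries appeared in all. Control replicates 9 and 23 and D10000 replicate 13 were on the lists of all 6 genes, and D5000 replicate 5 was on those of 5. D10000 replicate 27 was on 3 lists, and D5000 replicate 18 and control replicate 14 were on 2 each. The leading libraries therefore came from all 3 diets.

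Ranked against 12833 other genes with counts in at least 8 libraries, the members other than SCGB3A1 stood at rank 18 or better on each other's lists. SCGB3A1 stood at ranks 8 to 85 on their lists, and they stood at ranks 11 to 125 on its own. For SFTPC the genes with the highest rho were CBR2 (0.95), AGER (0.88), SLC34A2 (0.88), SFTPD (0.85) and SCGB1A1 (0.84), which were ranks 1 to 5, while CLDN18 was rank 13 and SCGB3A1 rank 40. The median rho of all ranked genes with SFTPC was 0.10, and 0.226% of them reached 0.7. CBR2 is a carbonyl reductase abundant in pig lung, and AGER, the receptor for advanced glycation end products, is a marker of type I cells. For SCGB1A1 the nearest genes with a symbol were SFTPC (0.84), CBR2 (0.82), SFTPD (0.81), CLDN18 (0.78) and the water channel AQP5 (0.78), which in lung marks type I cells and glands.

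CBR2 ranged from 0.111 to 83.0 CPM in control (median 10.7), from 0.999 to 113 CPM in D5000 (median 9.82) and from 1.06 to 82.0 CPM in D10000 (median 2.64). Its highest libraries were D5000 replicate 5 with 865 counts and control replicate 9 with 656 counts, and D10000 replicate 13 had 930 counts at a greater depth. Unlike the 6 genes it was counted in D5000 replicate 15 (26 counts) and D10000 replicate 21 (8 counts). AGER was at 0 to 10.8 CPM in control, 0 to 13.2 CPM in D5000 and 0 to 20.7 CPM in D10000. It was highest in D10000 replicate 13 (235 counts), followed by D5000 replicate 18 (57 counts) and control replicate 9 (85 counts).

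The proportions of the 6 genes were not the same in every library that held them. Among 12 libraries with at least 100 summed counts, SFTPC made up 14.1% to 76.4% of the sum (median 31.8%) and the airway pair 1.29% to 24.6% (median 9.14%). These shares set a gene in 1 library beside the same gene in another, and intervals are exact Clopper-Pearson intervals at 95% that cover counting error only. The airway pair made up 24.6% (21.7% to 27.7%) in D10000 replicate 27 and 20.6% (18.0% to 23.3%) in D5000 replicate 5. It made up 4.16% (3.24% to 5.26%) in control replicate 9 and 1.29% (0.557% to 2.52%) in D5000 replicate 18. The intervals of D10000 replicate 27 and D5000 replicate 5 overlap each other and lie wholly above those of control replicate 9 and D5000 replicate 18. These libraries were picked for high or low shares after the values were seen, so the gap between them is a description and not a test.

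In D5000 replicate 18, CLDN18 made up 43.6% (39.6% to 47.6%) and SFTPD 34.9% (31.1% to 38.8%), with SFTPC at only 14.1% (11.5% to 17.1%). D10000 replicate 7 showed the opposite, with 133 of 174 counts from SFTPC and 0 from CLDN18 (upper bound 2.10%). SLC34A2 made up 29.7% (28.0% to 31.6%) in D10000 replicate 13 and 5.24% (3.82% to 6.99%) in D10000 replicate 27, and its highest share was 36.7% in control replicate 16. D5000 replicate 18 and D10000 replicate 7 had low shares of assigned reads, 24.9% and 38.2%, and the part of this in their make-up was not tested. SFTPB, the other hydrophobic surfactant protein and no member, added a further case, named after its values were seen. Its highest level was 7.55 CPM (25 counts) in D10000 replicate 2, where SFTPC had 3 counts, CLDN18 had 24, and SFTPD and SLC34A2 had 0.

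**Figure D5:**
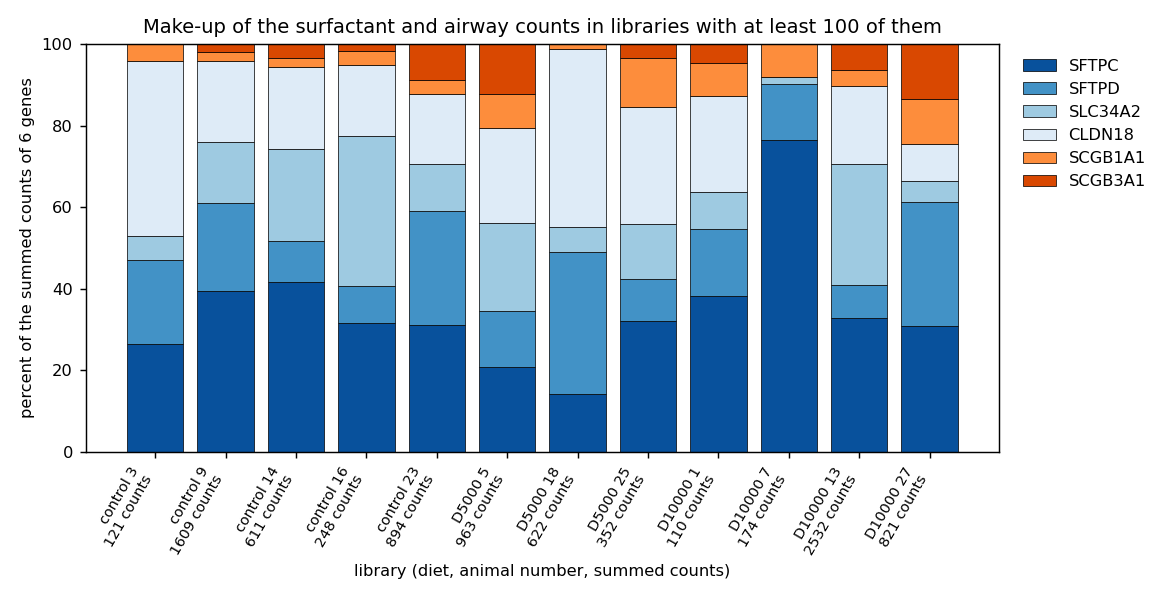
Share of each of the 6 transcripts in their summed counts, in the 12 libraries with at least 100 such counts, with the sum under each bar. Alveolar genes are blue and airway genes orange; the orange part runs from 1.29% in D5000 replicate 18 to 24.6% in D10000 replicate 27, and CLDN18 is missing from D10000 replicate 7.

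Lists of lung and other cell type markers were set beside the members. Of 17 alveolar type II symbols 14 matched an identifier and 13 had a count. The most counted that are no member were the protease CTSH (19.3 to 325 CPM), the hedgehog-binding protein HHIP (13.3 to 153 CPM) and the transcription factor ETV5 (1.02 to 29.6 CPM). All were counted in all 25 libraries, and their rho with SFTPC was 0.03, 0.09 and 0.19. Only SFTPB (0.50) and the aspartic protease NAPSA (0.69) of 10 ranked type II genes reached a rho of 0.5, while 4.09% of all ranked genes did. Of 9 type I genes 3 did, namely AGER, AQP5 and RTKN2 (0.62). The 3 with most counts, CAV1, EMP2 and CLIC5, are also made by other cells and had rho of 0.16, 0.24 and 0.29.

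Of 4 ranked club and secretory genes, 3 reached a rho of 0.5 with SFTPC: WFDC2 (0.78), CYP4B1 (0.71) and TFF3 (0.62). The fourth, PIGR, the receptor that carries antibodies across epithelia, had 0.28. Scarcer airway genes were seen in few libraries, with 47 counts of SCGB3A2 in 4 libraries, 71 of BPIFB1 in 6 and 45 of BPIFA1 in 5. Of 14 ciliated genes 13 had a count, but only 4 were counted in enough libraries to be ranked. Of these 0 reached a rho of 0.5 with SFTPC, with TPPP3 at 0.34, FOXJ1 at 0.10 and DYNLRB2 at -0.01. The highest library of the 13 genes was D10000 replicate 13 for 6 of them, D10000 replicate 27 for 4 and control replicate 9 for 1. Some of these highest values are a few reads, such as CAPS with 1 count in all, SPAG6 with 5 and DNAI2 with at most 7. D10000 replicate 27 was among the 5 highest libraries for only 3 members, and it was highest in all 8 adipocyte genes. Of the basal markers KRT15 and DSG3 were at 0 in all libraries, and TP63 and NGFR had rho of 0.57 and 0.06. Of 11 ranked pan-epithelial genes, EPCAM (0.51) and ESRP1 (0.59) reached 0.5, and the most counted, KRT8, KRT18 and CDH1, had 0.19, 0.07 and 0.08.

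Macrophage markers moved with SFTPC in part. Of 11, the scavenger receptor MARCO (0.69) and the complement genes C1QA (0.64), C1QC (0.58) and C1QB (0.54) reached 0.5. The others did not, with VSIG4 at 0.38, CD68 at 0.33, MSR1 at 0.20 and CD163 at 0.05. MRC1 had 0.03, FABP4 -0.24 and PPARG -0.32. The summed macrophage list ran from 149 to 508 CPM in control, from 105 to 447 CPM in D5000 and from 170 to 2382 CPM in D10000, and its rho with the 6 members was 0.32 to 0.54. The top value was that of D10000 replicate 27, where FABP4, which fat cells also make and the adipocyte list also holds, stood at 1944 CPM. Without FABP4, a choice made after seeing the data, the sum was at most 438 CPM in D10000 and 454 CPM in control, and its rho with the members was 0.34 to 0.59. Of 5 lung capillary genes TMEM100 (0.51) reached 0.5, while HPGD and EDNRB had -0.03 and -0.24. The part of macrophages in the level of the surfactant genes was not tested.

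Liver transcripts, with far more counts in these libraries, followed another order. ALB, serum albumin, stood at 1553 to 9815 CPM in control, 1752 to 14467 CPM in D5000 and 934 to 18158 CPM in D10000. Its rho with SFTPC was 0.02, and with the 6 members it ran from -0.37 to 0.02. Of 12 ranked liver genes 0 reached 0.5 with SFTPC (median -0.05). The library lowest in ALB, D10000 replicate 27, was rank 7 of 25 in summed CPM of the 6 genes, and the library highest in ALB, D10000 replicate 7, was rank 8. Of the kidney genes 7 of 10 had no count, of the stomach genes 5 of 9 and of the gut genes 4 of 9. The most counted were LRP2 of the kidney list with 124 counts and PGA5 of the stomach list with 7. In sum the gut list was not near 0, since the apolipoprotein gene APOA4 had 23882 counts over all 25 libraries, with a rho of 0.10 with SFTPC. APOA4 was highest in D10000 replicate 7, as ALB was. The other gut genes with a count had far fewer, with 105 for LGALS4, 10 for VIL1 and 2 each for CDX2 and FABP6.

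The members were also set beside measures of the libraries. Their rho with total gene counts ran from -0.21 to 0.24 and with the share of assigned reads from -0.04 to 0.38. With ACTA1 it ran from -0.52 for SFTPD and -0.51 for SFTPC to -0.21 for SCGB3A1, and with the summed skeletal muscle list from -0.46 to -0.14. The part of these measures in the levels of the members was not tested. Among the marker lists, 0 genes were called in any diet contrast, as for all tested genes. The type II list had a median log2 fold change of -0.11 at D5000 and -0.18 at D10000 against control (12 tested), and the type I list -0.04 and -0.30 (9 tested). The club and secretory list stood at -0.01 and 0.15 (5 tested). These lists include the members. Of the adipocyte list, all 8 genes were highest in D10000 replicate 27, with a sum of 22051 CPM. The other 8 D10000 libraries lay between 163 and 695 CPM, against 207 to 708 CPM in D5000 and 167 to 416 CPM in control.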

How the data were processed

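Muscle RNA of 25 pigs was read from the 3' end of mRNA, with 1 library per pig. The authors deposited raw counts of reads per Ensembl pig gene, 1 file each. Per the submitters' processing notes FastQC was used, while aligner, counter, build and annotation are not given in the sources used here. Summary lines and spike-ins stayed out of library sizes: 24.9% to 70.6% of the reads in a file were assigned to genes. No per-sample column was left unmapped. Since reads come from the 3' end, counts do not grow with transcript length, and 3' end annotation can set how much of a gene is counted. Where genes are set beside each other, the order is therefore one of reads counted and not of transcript abundance.

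Counts were filtered with filterByExpr (minimum count 10, minimum total 15), scaled by TMM and fitted with glmQLFit and glmQLFTest of edgeR 4.0.16 in R 4.3.3, diet as the only term, adjusted over 10992 genes at a threshold of 0.05. Log2 CPM have a prior count of 2. Exact permutation tests (12870 or 24310 splits, two-sided) used SciPy 1.17.1. Correlations carry no p. Within-diet libraries differed far beyond sampling noise (lowest chi-square per gene 68.8 over 92 pairs), so each counted as 1 sample. The labels give 1 pig per library. Alternatives were RLE scaling, DESeq2 1.42.0, no filter, a covariate, single contrasts, other scales and leaving out libraries. Members, marker lists and tests were chosen with earlier results of these data known. Named are the members, the 5 genes most like SFTPC and SCGB1A1 by rho, the 3 most counted genes of each lung or epithelial list, and the most counted of the others, ACTA1 and SCD (138545 counts) among them. Intervals and floors cover counting error only.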

Additional observations from a re-analysis of the deposited data

Results flagged for a closer look

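The 6 genes in 3 diets make 18 groups, and in 9 of them the highest library stood apart by Dixon's test on CPM, where chance flags about 5% of groups. The values are strongly skewed, and the test was run on the linear scale. No lowest library stood apart.

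D10000 replicate 13 stood apart for SFTPC (73.1 CPM, next 23.4), SLC34A2 (66.4 CPM, next 3.34) and CLDN18 (42.8 CPM, next 7.25). D5000 replicate 5 stood apart for SLC34A2 (27.2 CPM, next 8.78), SCGB1A1 (10.3 CPM, next 3.44) and SCGB3A1 (15.5 CPM, next 2.86). D5000 replicate 18 stood apart for SFTPD (50.1 CPM, next 17.2) and CLDN18 (62.6 CPM, next 29.1), with a share of assigned reads of 24.9%. Control replicate 23 stood apart for SCGB3A1 (12.2 CPM, next 4.18).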

How the results depend on the processing

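The count of members called was 0 in each contrast under every setting run, over the members that had a value there. In each edgeR or DESeq2 fit, 0 of all tested genes were called as well. This result therefore does not set the members apart from other genes. Of 433 recomputed single values 50 changed sign when 1 library was left out and 19 under other settings, and none passed the threshold. The cause was not tested. At D5000 against control, CLDN18 gave 0.0061 with RLE scaling and 0.0053 with DESeq2, and SCGB3A1 gave 0.40 without 5 doubtful libraries (4 with under 45% assigned reads, and D10000 replicate 27), a setting chosen after seeing the data. At D10000 against control, SCGB3A1 gave 0.054 with RLE, 0.037 with DESeq2 and 0.045 without the 5 libraries, where SLC34A2 gave 0.091. At D10000 against D5000, adding the assigned share as a covariate gave 0.057 for SFTPD and -0.35 for SLC34A2, and leaving out the 5 gave 0.081 for SFTPD. There SCGB1A1 gave 0.0011 with RLE, and SCGB3A1 gave 0.057 with RLE, 0.047 with DESeq2 and 0.011 with no filter on low counts.

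Of the mean differences, those on the CPM scale changed sign for SCGB1A1 at D5000 against control (0.387 CPM) and, at D10000 against D5000, for SFTPC (5.39 CPM), SFTPD (-3.69 CPM) and SLC34A2 (2.06 CPM). With a prior count of 0.5, SCGB1A1 at D10000 against control gave -0.036 on the log2 scale.

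Leaving out 1 library at a time gave, at D5000 against control, -0.67 to 0.60 for CLDN18, -0.68 to 0.83 for SCGB1A1 and -1.96 to 0.69 for SCGB3A1. At D10000 against control it gave -4.04 to 0.055 for SLC34A2, -0.28 to 0.76 for SCGB1A1 and -0.21 to 0.72 for SCGB3A1. At D10000 against D5000 it gave -0.61 to 1.21 for SFTPC, -1.16 to 0.57 for SFTPD, -3.17 to 1.56 for SLC34A2, -0.72 to 1.02 for SCGB1A1 and -0.20 to 1.94 for SCGB3A1. Most of these ends came from D10000 replicate 13, D5000 replicate 5 or control replicate 9. SCGB3A1 did not pass the filter on low counts without D10000 replicate 13 or 27 and has no value there. With only 2 diets in the fit, neither airway gene had a value in any contrast, nor had SFTPD at D10000 against D5000. No paired analysis was possible because animal numbers are not shared between diets and the labels name no litters. In the shallowest library 3 counts are 0.906 CPM, so medians of the airway genes lie near the level that a count of 0 allows.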

Other observations

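Some genes outside the lists moved closely with single members and were named after their values were seen. For SCGB3A1 the nearest genes with a symbol were SFTA2, a surfactant-associated gene (rho = 0.79, 88 counts in all), and SUSD2 (rho = 0.76). For SLC34A2 they included the Wnt inhibitor WIF1 (rho = 0.79, 72 counts) and the integrin ITGA3 (rho = 0.78). For SFTPD the fourth gene was SUPT3H (rho = 0.81, 12305 counts), and for CLDN18 the protease gene CASP1 stood at rank 6 (rho = 0.76).

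Single libraries carried other airway or alveolar genes at their highest level. CYP4B1 reached 755 CPM in D10000 replicate 27, against a median of 1.81 CPM. That library was also highest in all 8 adipocyte markers, among them ADIPOQ at 1234 CPM, while its SCGB1A1 stood at 7.16 CPM, and the part of fat in the CYP4B1 level was not tested. RTKN2 reached 28.9 CPM and CLIC5 465 CPM in D5000 replicate 18, the library highest in SFTPD and CLDN18. That library had the lowest share of assigned reads, 24.9%. It was also highest in genes outside the lung lists, such as TTR and FGB of the liver list. The ciliary dynein gene DNAH9 reached 8.16 CPM (27 counts) in D10000 replicate 2, the library highest in SFTPB. That library was the shallowest, with 28.4% of its reads assigned.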
